A study of Mus musculus with 126 samples.

Results

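The colon of mice that lack the clock gene Bmal1 in the gut was sampled around the day, and the 6 sampling times were compared with each other. All libraries whose genotype label is Bmal1 knock out were taken, which gave 18 of the 126 libraries of the series, with 3 libraries per time. The times were ZT0, ZT4, ZT8, ZT12, ZT16 and ZT20. Zeitgeber time (ZT) counts hours from lights on. The knock out mice were 8 to 12 weeks old, carried a gut-specific Bmal1 deletion and ate normal chow ad libitum. The nearest group was wild type on the same chow, with 18 libraries at the same times, and it is used below only to show where the knock out differs. The labels do not name the promoter that drives the deletion, nor the age of the wild-type mice. Polyadenylated RNA from colon was sequenced with a stranded kit. The labels do not say whether replicates came from separate animals, so each p-value measures the spread between these libraries, which may be partly technical.

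BMAL1 pairs with CLOCK or NPAS2 and switches on the Per, Cry and Rev-erb genes, whose products feed back on it, and the loop runs about once a day in nearly every cell. A tissue without its own loop still receives daily signals from the rest of the body, among them meals, body temperature and adrenal glucocorticoids. Heat shock genes, the cold-inducible RNA-binding proteins and glucocorticoid-induced genes are the usual readers of the last 2, and colon crypts also renew their epithelium with a daily beat. Whether such genes still vary across the 6 times is the question of the comparison.

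Expression was given as FPKM, fragment counts scaled to transcript length and to the mapped total of the library. Each library was divided by its scale factor, the median ratio of its genes to their geometric mean over all 126 libraries, and levels below are these rescaled FPKM unless stated. The 18 libraries fell into 2 sets, and this comes before any result. The scale factor of 13 libraries lay between 0.297 and 0.780 and that of the other 5 between 1.23 and 1.48. The 5 were the 3 libraries of ZT4, replicate 3 of ZT0 and replicate 2 of ZT8. The first principal component held 54.8% of the variance and separated the same 2 sets. Log values of 2 libraries correlated across genes at 0.966 to 0.989 within the 13, at 0.963 to 0.983 within the 5, and at 0.886 to 0.961 between the sets. The 100 most abundant genes took 42.6% to 45.2% of the summed FPKM in the 13 libraries and 33.3% to 37.6% in the 5. The slope of log2 level on log2 transcript length ran from -0.14 to 0.01 in the 13 and from 0.11 to 0.31 in the 5. Rows for ribosomal RNA made up 2.07% of summed FPKM in the median library of the 13 and 0.832% in that of the 5, with overlapping ranges. A limit of 0.6, the bound for low yield, puts 9 libraries below it (1 at ZT0, all 3 at ZT12, all 3 at ZT16 and 2 at ZT20), but it cuts through the 13.

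**Figure D1:**
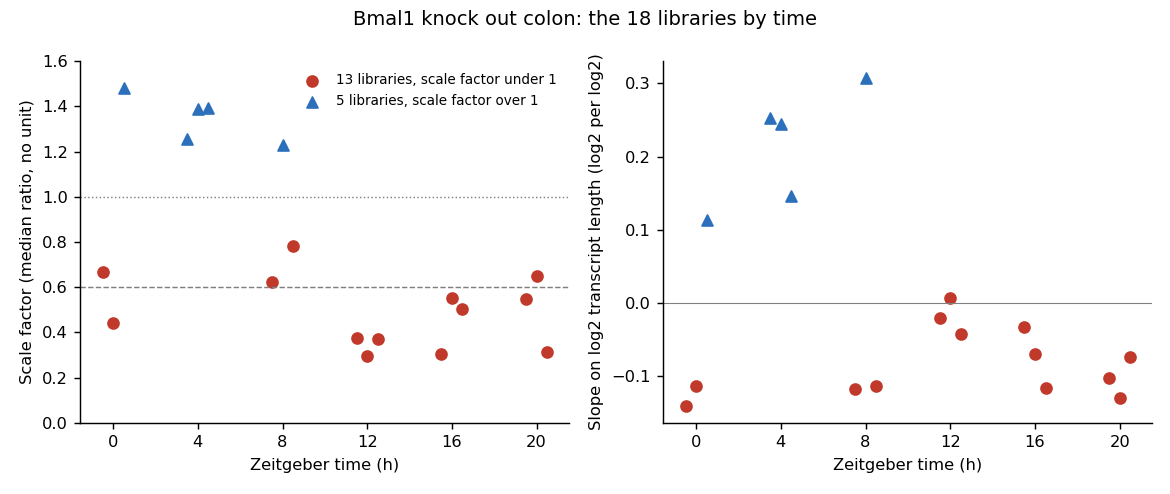
Scale factor (left, no unit) and slope of log2 level on log2 transcript length (right) of each of the 18 Bmal1 knock out libraries against zeitgeber time in hours. Circles are the 13 libraries of scale factor under 1 and triangles the 5 over 1. The dashed line marks 0.6 and the dotted line 1. All 3 ZT4 libraries are triangles, and ZT12, ZT16 and ZT20 hold circles only.

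Time and library set cannot be told apart at ZT4, ZT12, ZT16 and ZT20. Results are therefore given over all 18 libraries, without the 9 libraries of low yield, and within the 13 libraries, which lack ZT4. A peak that the 13-library fit places near ZT4 is interpolated. The 5 other libraries, which that fit did not use, are printed for some of these genes, among them Ccnb2, Cdc20 and Cirbp, and not for all. The marker lists of epithelium, goblet cells and surface colonocytes were high in every library. Their summed levels had medians of 10876, 23578 and 6354 in the 13 libraries and 8836, 14748 and 9348 in the 5. These sums rest on abundant members, and members of 1 list went both ways. The median of Krt18 was 924 in the 13 and 413 in the 5, while that of Cdh1 was 92.0 and 156. Among goblet markers Spink4 had 14031 and 6936, while Muc2 had 544 and 1024. Among surface colonocyte markers Car1 had 2785 and 4795, while Saa1 had 597 and 225. None of the 8 fibroblast, 6 endothelial or 8 enteric neuron and glia markers averaged 1 FPKM. Markers of T cells, 3 of 8 of which averaged 1 FPKM or more, summed to 6.15 to 22.5 in the 13 libraries and 2.05 to 6.67 in the 5. Their part in the results was not tested. In such bulk samples fewer cells of a type and less RNA per cell cannot be told apart.

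Over all 18 libraries, 5338 of 10720 genes passed the test for a 24 h rhythm (49.8%, limma, adjusted p under 0.05), and 3821 (35.6%) passed the test for any difference among the 6 times. With the library set as a term the second count was 433 (4.04%), and among the 5 times of the 13 libraries it was 421 (3.93%). The 3821 became 1187, 826 and 1908 without replicates 1, 2 and 3 of ZT4, 5964 without ZT8 replicate 2, and 2524 and 2424 without replicates 2 and 3 of ZT16. Of the rhythm calls, 79.7% peaked between ZT2 and ZT6 or between ZT14 and ZT18. Within the 13 libraries 713 genes passed the rhythm test (6.65%), and 45.0% of them peaked in those windows, against 30.5% of 3101 calls in wild type (27.6% of 11216 genes). With the set entered as a term over all 18 libraries, 973 genes passed (9.08%). The 13-library fit shared 549 calls with it, 77.0% of its own calls and 56.4% of the others, and all 549 had peaks within 4 h in both. Both fits hold the same 13 libraries, so this overlap is not an independent check. Actb, the cytoplasmic actin often used as a reference gene, differed between the sets without overlap. It stood at 739 at ZT0, at 783, 629 and 626 at ZT4 and at 1245 at ZT8 in the 5 libraries, and ran from 1420 to 2260 in the 13. Its rhythm over 18 libraries had an amplitude of 0.69 (adjusted p = 0.00128), and over the 13 it did not pass (0.27 ± 0.08, adjusted p = 0.141). With FPKM as deposited, its fitted peak over 18 libraries moved to ZT3.61. Amplitudes here run from the middle of the fitted curve to its peak on the log2(rescaled FPKM + 0.5) scale, with standard errors.

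**Figure D2:**
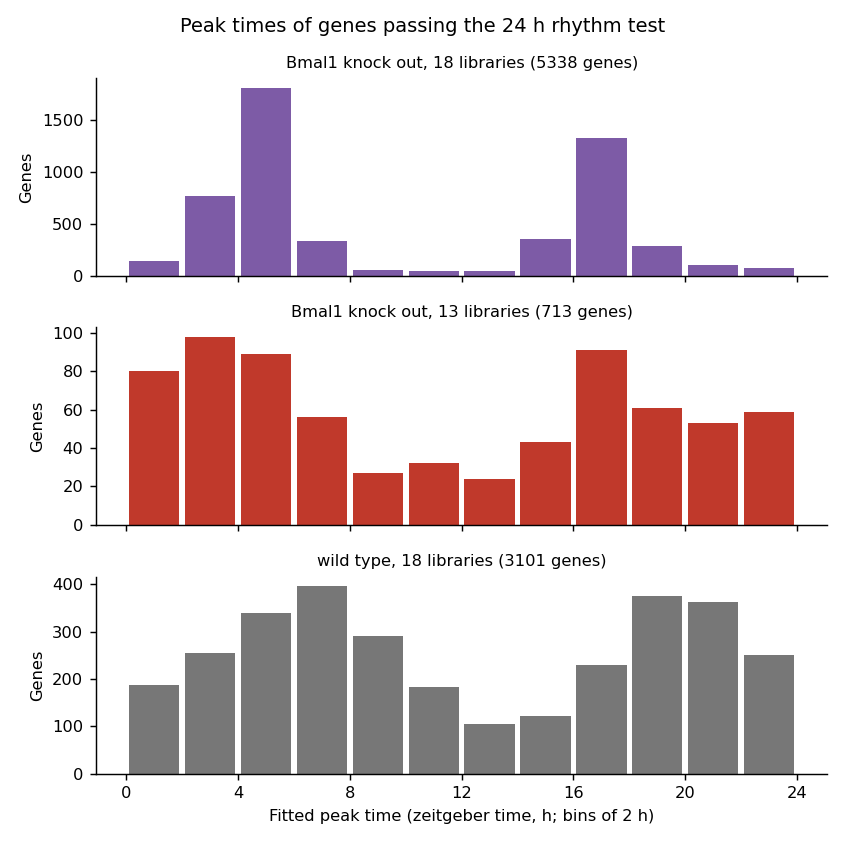
Number of genes per 2 h bin of fitted peak time among genes that pass the 24 h rhythm test, in all 18 Bmal1 knock out libraries (top), in the 13 of scale factor under 1 (middle) and in 18 wild-type libraries (bottom). In the top panel 79.7% of 5338 genes peak between ZT2 and ZT6 or between ZT14 and ZT18. The middle panel spreads its 713 genes more widely.

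With the 9 libraries of low yield left out, no gene passed the rhythm test by limma (0 of 10720, 0%). At an unadjusted p under 0.05 there were 995 genes (9.28%), and the lowest adjusted p was 0.349. These 9 remaining libraries hold 5 of one set and 4 of the other, none at ZT12 or ZT16 and 1 at ZT20. The call counts over the 13 libraries also rested on few samples. Leaving out 1 library gave between 321 calls, without ZT0 replicate 1, and 823. The count fell by over 1.5 times also without ZT12 replicate 2 (463), ZT12 replicate 3 (459), ZT16 replicate 2 (423), ZT16 replicate 3 (371) or ZT20 replicate 1 (419). Leaving out all libraries of 1 replicate number gave 28 to 61.

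Of 67 calls followed with this test, 32 passed whichever single library was left out, and 3 (Ankrd37, Cdca3 and Cirbp) passed without each replicate number. With the length slope as a covariate 25 of the 67 ended, and with FPKM as deposited 39 did. The genes described below whose calls ended in either way are named with their list. With the log2 scale factor as a covariate 863 of all genes passed, against 713. Of the genes described below it ended the calls of Per1 (adjusted p = 0.0563), Per2 (0.057), Mcm2 (0.0512), Ifit1bl1 (0.0561), Hist1h2bh (0.0552) and Retsat (0.0637). Within the 13 the scale factor still went with time, from 0.297 to 0.374 at ZT12 and at 0.621 and 0.780 at ZT8. The 5 libraries allow 1 comparison of direction. The change from ZT4 to ZT8 among them had the sign the 13-library fit gives for 526 of its 713 genes (73.8%), against 61.5% of all 10720 genes. Where the fitted change was at least 0.25 the signs were the same for 245 of 293 genes (83.6%), against 71.4% of all 917 genes with such a change. The 13-library fit has no library at ZT4, so its change is interpolated. ZT8 has 1 library in this set, which all genes share, so the genes are not separate checks.

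Mitosis genes peaked together early in the day. Of 17 measured members 13 were rhythmic over the 13 libraries and all 17 over 18, against 6.65% and 49.8% of all genes. The list's median amplitude was 0.46, against 0.16 over all genes tested. The mean peak of the 13 was ZT2.74. Ccnb2, the B-type cyclin that drives entry into mitosis (chromosome 9, 70407692 to 70421547, mm10), stood in the 13 libraries at 18.1 and 15.5 at ZT0, at 20.3 and 16.3 at ZT8, at 12.1, 11.7 and 9.86 at ZT12, at 7.62, 7.82 and 9.26 at ZT16, and at 9.07, 11.3 and 11.6 at ZT20. The ZT0 and ZT8 values did not overlap those of the later times. In the 5 libraries it stood at 20.5 at ZT0, at 24.8, 23.3 and 30.9 at ZT4 and at 15.2 at ZT8, highest at ZT4. Its amplitude was 0.69 ± 0.07 with a peak at ZT4.29 (adjusted p = 0.00141). Cdc20, the activator of the ubiquitin ligase that ends metaphase, had 19.2 and 19.6 at ZT0, 19.1 and 13.2 at ZT8, 13.2, 12.2 and 9.11 at ZT12, 8.31, 8.09 and 8.14 at ZT16, and 8.90, 11.6 and 13.3 at ZT20. Its 3 ZT16 values were the lowest of the 13. In the 5 libraries its ZT4 values of 23.7, 21.0 and 26.8 were above the 17.6 of ZT0 and the 14.2 of ZT8. Its amplitude was 0.68 ± 0.09 with a peak at ZT3.69 (adjusted p = 0.00585).

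Regulators of spindle and chromosome followed the same timing. The kinase Plk1 had an amplitude of 0.53 ± 0.05 and peaked at ZT2.62 (adjusted p = 0.00141), and Aurkb, the kinase that corrects chromosome attachment, had 0.57 ± 0.08 at ZT2.17 (adjusted p = 0.00831). Ndc80, a kinetochore subunit outside the list, peaked at ZT0.851 (0.68 ± 0.09, adjusted p = 0.00219). Cenpa, the histone of centromeres and also outside the list, peaked at ZT3.03 (0.69 ± 0.09, adjusted p = 0.00389). Mki67, the proliferation marker, was earliest of the 13 list members called, at ZT0.865 (0.41 ± 0.07, adjusted p = 0.00799). Of the 7 mitosis genes followed through the alternatives (Ccnb2, Cdc20, Plk1, Aurkb, Mki67, Ube2c and Ccnb1), 6 passed whichever single library was left out. The exception was Ccnb1, the other B-type cyclin (0.55 ± 0.11, adjusted p = 0.0347), which passed in 6 of 13 such fits and stood at an adjusted p of 0.089 without ZT0 replicate 2. With transcript-length slope as a covariate Mki67 (adjusted p = 0.0779) and Ube2c (adjusted p = 0.0634) did not pass, nor did Mki67 with FPKM as deposited (0.0515). None of the 6 measured crypt base markers was rhythmic over the 13 libraries by limma, nor any of 8 general epithelial markers. Over all 18, 3 of 6 and 3 of 8 passed. Of all genes 6.65% passed over the 13 and 49.8% over 18, so these short lists do not stand apart.

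Most promoters of the mitosis list hold a sequence feature that is not particular to it. RefSeq windows of the 250 bases before the start (GRCm38.p6) were at hand for 14 of its 17 members, and 13 of these (92.9%) held CCAAT on either strand, the letters bound by the factor NF-Y, against 36.8% of the 8112 tested genes with a window. The letters TTTGAA, which the cell cycle literature knows as the homology region of late cell cycle genes, stood in 7 of 14 (50.0%), against 10.4% of all. Windows of DNA replication and S phase genes held CCAAT in 10 of 14 (71.4%) and TTTGAA in 1 of 14 (7.14%). CCAAT also stood in 3 of 3 clock repressor windows and in 5 of 13 heat shock windows (38.5%). Capitals mark CCAAT in the 2 members described first, Ccnb2 at chr9:70421555-70421804 and Cdc20 at chr4:118437344-118437593, both on the minus strand.
Ccnb2: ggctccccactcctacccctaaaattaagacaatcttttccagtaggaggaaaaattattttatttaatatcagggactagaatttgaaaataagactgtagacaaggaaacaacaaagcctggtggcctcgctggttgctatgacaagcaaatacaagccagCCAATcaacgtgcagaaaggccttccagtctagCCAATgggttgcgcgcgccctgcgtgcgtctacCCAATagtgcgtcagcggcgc
Cdc20: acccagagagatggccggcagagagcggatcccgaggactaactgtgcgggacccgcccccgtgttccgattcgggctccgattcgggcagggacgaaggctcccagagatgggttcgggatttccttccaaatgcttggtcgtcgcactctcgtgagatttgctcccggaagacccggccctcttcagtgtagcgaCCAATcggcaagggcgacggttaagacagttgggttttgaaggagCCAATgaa
The letters describe the windows only, and no binding was measured.

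Of 16 measured DNA replication and S phase genes 6 were rhythmic over the 13 libraries and 12 over 18. The shares of all genes were 6.65% and 49.8%. The list's median amplitude was 0.25, and the mean peak of the 6 was ZT21.2. Gins2, a subunit of the replicative helicase, had 11.9 and 9.64 at ZT0, 8.19 and 7.12 at ZT8, 6.67, 5.89 and 5.60 at ZT12, 6.47, 4.93 and 5.45 at ZT16, and 12.1, 11.1 and 9.95 at ZT20. The values of ZT20 and ZT0 were above all others of the 13. The 5 libraries had 11.5 at ZT0, 9.74, 8.38 and 10.3 at ZT4 and 6.67 at ZT8, highest at ZT0. Its amplitude was 0.53 ± 0.09 with a peak at ZT0.819 (adjusted p = 0.01). Tyms, which makes thymidylate, peaked at ZT22.2 (0.27 ± 0.05, adjusted p = 0.0136). Both passed in all 13 fits that leave out 1 library. Uhrf1, which keeps DNA methylation through replication, peaked at ZT20.3 (0.31 ± 0.07, adjusted p = 0.0235; 0.0564 without ZT20 replicate 1). Mcm2, Mcm3 and Rrm1 passed by little (adjusted p = 0.0472, 0.0477 and 0.0403), in 2, 3 and 3 of 13 such fits, with highest adjusted p of 0.12 and 0.104 without ZT8 replicate 1 and 0.0879 without ZT20 replicate 1. With FPKM as deposited the calls of Tyms (adjusted p = 0.224), Uhrf1 (0.275), Mcm2, Mcm3 and Rrm1 ended, and those of the last 3 ended also with the length slope.

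The heat shock genes that passed peaked in the dark phase. Of 16 measured members 6 were rhythmic over the 13 libraries and 11 over 18, against 6.65% and 49.8% of all genes. The 6 peaked around ZT16.4, and the list's median amplitude was 0.36. Hsp90aa1, the inducible HSP90 chaperone (chromosome 12, 110690605 to 110702728, mm10), stood at 89.4 and 146 at ZT0, 78.2 and 88.5 at ZT8, 121, 111 and 177 at ZT12, 229, 239.5 and 279 at ZT16, and 157, 173 and 163 at ZT20. The 3 values of ZT16 were above every other library. In the 5 libraries it had 63.1 at ZT0, 73.4, 68.0 and 69.4 at ZT4 and 113 at ZT8. Its amplitude was 0.84 ± 0.11 with a peak at ZT17.0 (adjusted p = 0.00534). Hsph1, an HSP110 co-chaperone, had ZT16 values of 21.6, 27.4 and 25.3, against 7.78 and 9.17 at ZT0, and peaked at ZT15.6 (0.83 ± 0.15, adjusted p = 0.0266). It passed in 8 of 13 fits that leave out 1 library, with the highest adjusted p of 0.075 without ZT0 replicate 1. Fkbp4, an HSP90 co-chaperone of steroid receptors, had 149 and 169 at ZT0, 137 and 120.3 at ZT8, 139, 135 and 155 at ZT12, 200.1, 212 and 214 at ZT16, and 185, 189 and 170.3 at ZT20. Its amplitude was 0.37 ± 0.06 with a peak at ZT18.1 (adjusted p = 0.0137), and it passed in all 13 such fits, as did Hsp90aa1.

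The other heat shock calls were Chordc1 (0.54 ± 0.09, adjusted p = 0.0176; 0.0579 without ZT0 replicate 1), Hspa4l (0.64 ± 0.10, adjusted p = 0.0162; 0.051 without ZT0 replicate 1) and Cacybp (0.44 ± 0.08, adjusted p = 0.0255; 0.0695 without ZT0 replicate 1). The constitutive chaperone Hspa8 did not pass (0.35 ± 0.10, adjusted p = 0.114). Nor did the stress-induced pair Hspa1a and Hspa1b, near-identical copies whose reads may be split between them. With FPKM as deposited all 6 heat shock calls ended (the lowest was Hsp90aa1, adjusted p = 0.3), while the length covariate ended none of them. In the 250 bases before the RefSeq start, 6 of 13 heat shock windows (46.2%) held GAANNTTC, an inverted pair of the units that heat shock factor binds, against 4.99% of all tested genes with a window. Capitals mark it in Fkbp4 at chr6:128438657-128438906, minus strand.
Fkbp4: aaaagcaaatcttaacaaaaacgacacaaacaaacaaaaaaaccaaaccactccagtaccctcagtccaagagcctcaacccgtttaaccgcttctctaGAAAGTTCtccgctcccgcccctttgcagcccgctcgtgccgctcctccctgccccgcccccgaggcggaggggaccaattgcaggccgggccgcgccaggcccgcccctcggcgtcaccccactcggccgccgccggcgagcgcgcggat
The match is a description of these letters.

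The cold-inducible RNA-binding proteins peaked in the light phase. Cirbp, whose mRNA is known to increase when temperature falls (chromosome 10, 80165985 to 80172786, mm10), had 19.2 and 20.9 at ZT0, 24.5 and 24.9 at ZT8, 21.1, 14.7 and 12.9 at ZT12, 10.5, 11.02 and 10.1 at ZT16, and 13.6, 15.3 and 12.97 at ZT20. The ZT16 values were the lowest of the 13 libraries, where Hsp90aa1 was highest. In the 5 libraries Cirbp had 26.3 at ZT0, 19.6, 21.4 and 23.6 at ZT4 and 15.9 at ZT8, lowest at ZT8. Its amplitude was 0.68 ± 0.08 with a peak at ZT4.75 (adjusted p = 0.00222). Rbm3, its relative, had 78.5 and 104 at ZT0, 154 and 218 at ZT8, 178, 175 and 160.2 at ZT12, 83.5, 99.1 and 117 at ZT16, and 95.2, 89.9 and 77.4 at ZT20. Its ZT8 and ZT12 values did not overlap any other of the 13. Its amplitude was 0.61 ± 0.09 with a peak at ZT8.68 (adjusted p = 0.00222). Both passed in all 13 fits that leave out 1 library, and Cirbp did so also when all libraries of 1 replicate number were left out (highest adjusted p = 0.0496). The third member, Srsf5, did not pass over the 13 (amplitude 0.07, adjusted p = 0.73). With FPKM as deposited the call of Rbm3 ended (adjusted p = 0.0675).

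**Figure D3:**
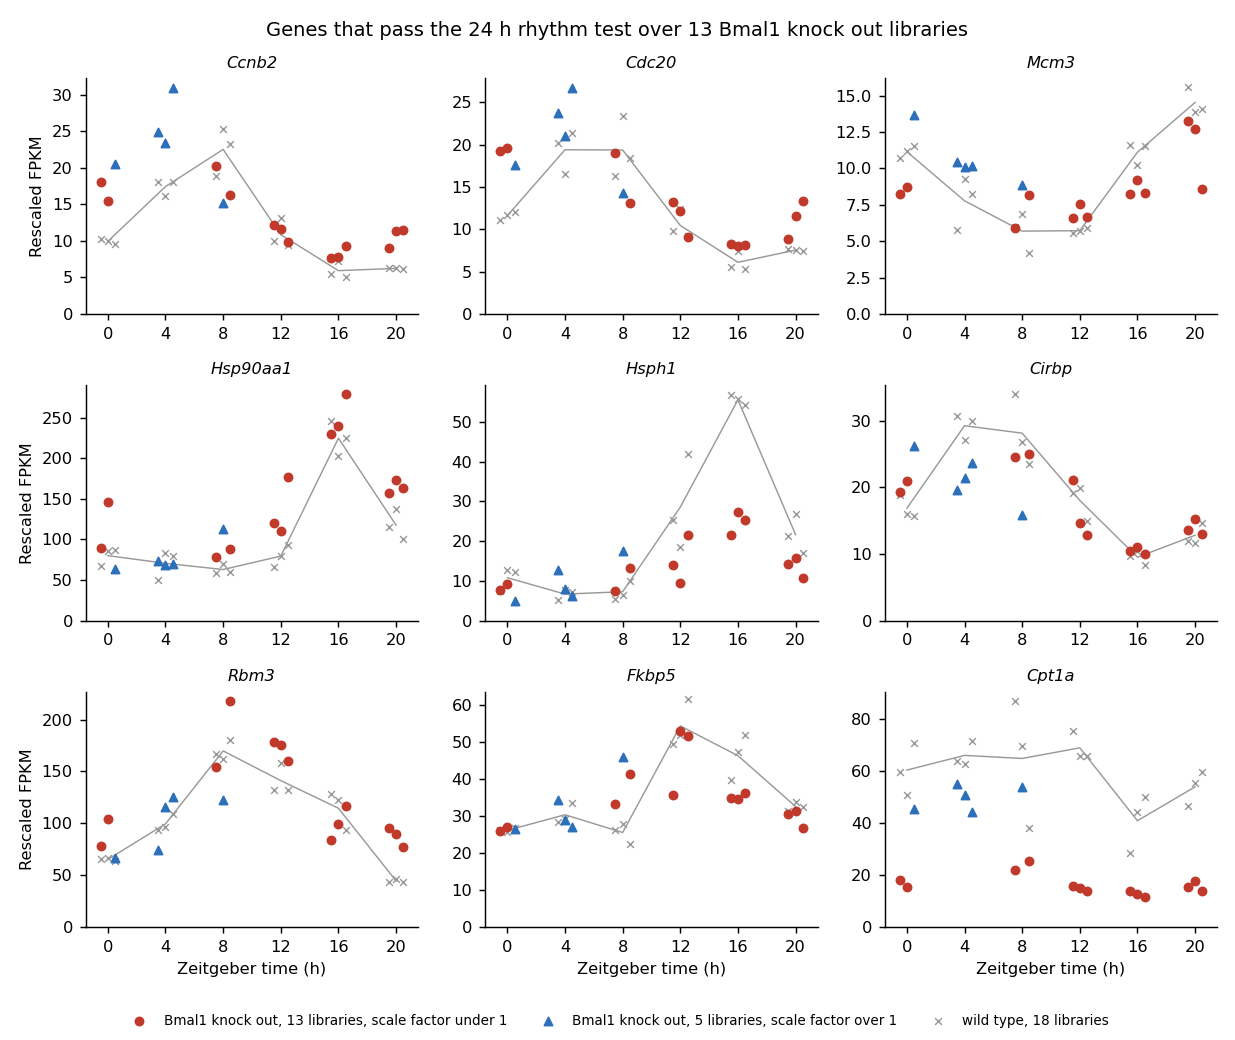
Rescaled FPKM against zeitgeber time (hours) for 9 genes that pass the rhythm test over 13 Bmal1 knock out libraries. Circles are those 13 libraries, triangles the 5 of scale factor over 1, grey crosses single wild-type libraries and the grey line their mean. Hsp90aa1 is highest and Cirbp lowest at ZT16. Cpt1a lies between 44.3 and 55.1 in the triangles and between 11.7 and 25.3 in the circles.

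Of 10 measured glucocorticoid-induced genes 4 were rhythmic over the 13 libraries and 8 over 18, against 6.65% and 49.8% of all genes. The list's median amplitude was 0.24. The 4 do not peak at 1 time. Sgk1, the kinase that keeps sodium channels at the membrane, had 21.2 and 19.2 at ZT0, 26.2 and 25.6 at ZT8, 35.4, 43.6 and 36.2 at ZT12, 27.2, 28.3 and 28.4 at ZT16, and 18.2, 18.1 and 21.1 at ZT20. The 3 ZT12 values were above the rest of the 13, while the ZT8 library among the 5 had 86.2. Its amplitude was 0.47 ± 0.08 with a peak at ZT11.7 (adjusted p = 0.00496). Fkbp5, the co-chaperone that restrains the glucocorticoid receptor, had 26.1 and 27.0 at ZT0, 33.2 and 41.3 at ZT8, 35.8, 53.0 and 51.7 at ZT12, 34.8, 34.5 and 36.1 at ZT16, and 30.6, 31.4 and 26.8 at ZT20. It was low at ZT0 and ZT20, and its ZT12 values overlapped those of ZT8 and ZT16. Its amplitude was 0.36 ± 0.07 with a peak at ZT11.6 (adjusted p = 0.0166). Both passed in all 13 fits that leave out 1 library. With the length slope as a covariate the adjusted p of Fkbp5 was 0.0913. The length slope itself ran from -0.04 to 0.01 at ZT12, where 2 of the 13 libraries had the highest values, and its part in results that peak there was not tested beyond this covariate. The calls of Sgk1 (adjusted p = 0.33), Fkbp5 (0.407) and Cdkn1a (0.288) ended with FPKM as deposited. Cdkn1a, the cell cycle inhibitor p21, peaked at ZT6.77 (0.23 ± 0.05, adjusted p = 0.0267) and passed in 10 of 13 such fits, with the highest adjusted p of 0.0546 without ZT20 replicate 2. Tsc22d3, Dusp1 and the metallothioneins Mt1 and Mt2 did not pass over the 13.

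None of 3 activators, 0 of 2 output factors and 0 of 11 clock output genes were rhythmic over the 13 libraries by limma (2, 0 and 5 over 18), against 6.65% of all genes over the 13 and 49.8% over 18. The repressors Per1 and Per2 were called, 2 of 5. Arntl, which encodes BMAL1 (chromosome 7, 113207465 to 113314126, mm10), stood at 4.46 and 3.49 at ZT0, 3.92 and 3.88 at ZT8, 3.96, 2.87 and 3.39 at ZT12, 3.79, 4.17 and 4.02 at ZT16, and 4.02, 3.54 and 4.99 at ZT20, with overlap at all times. In the 5 libraries it ran from 5.13 to 6.28. Its amplitude over the 13 was 0.09 ± 0.07 (adjusted p = 0.54). A value per gene cannot tell deleted exons from the others, so this level checks neither label nor deletion. Dbp, a target switched on by BMAL1, stood between 0.521 and 2.24 in all 13 libraries and between 0.688 and 1.44 in the 5. Nr1d1, the repressor REV-ERB alpha, averaged under 1 FPKM over the knock out and was not tested there. Nfil3, its target, ran from 4.38 to 14.1 over the 13 (0.26 ± 0.15, adjusted p = 0.41), with both of the highest values at ZT8.

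Per1, which signals from outside the loop can also induce, was rhythmic over the 13 libraries. It had 1.72 and 1.61 at ZT0, 2.57 and 2.82 at ZT8, 4.32, 3.90 and 3.72 at ZT12, 3.97, 3.16 and 2.93 at ZT16, and 2.25, 2.93 and 4.12 at ZT20. The 5 libraries had 1.94 at ZT0, 2.06, 1.83 and 1.76 at ZT4 and 4.31 at ZT8. It was low at ZT0 in both sets and at ZT4 in the 5 libraries. Its amplitude was 0.49 ± 0.10 with a peak at ZT14.0 (adjusted p = 0.0245), and 2 libraries decided the call, since it stood at 0.0896 without ZT0 replicate 1 and at 0.0697 without ZT0 replicate 2. With the length slope as a covariate it did not pass (adjusted p = 0.271), nor with FPKM as deposited (0.569). Per2 was weaker (0.36 ± 0.07 at ZT15.9, adjusted p = 0.0433), passed in 3 of 13 such fits (highest adjusted p 0.0899 without ZT16 replicate 1), and with FPKM as deposited its fitted peak moved to ZT22.0. With the length slope its adjusted p was 0.0959. The 250 bases before the RefSeq start of Per1 (chr11:69098699-69098948, plus strand) hold 1 E-box CACGTG, the palindrome that BMAL1 with CLOCK binds, in capitals. It stands in 8.70% of all tested windows.
Per1: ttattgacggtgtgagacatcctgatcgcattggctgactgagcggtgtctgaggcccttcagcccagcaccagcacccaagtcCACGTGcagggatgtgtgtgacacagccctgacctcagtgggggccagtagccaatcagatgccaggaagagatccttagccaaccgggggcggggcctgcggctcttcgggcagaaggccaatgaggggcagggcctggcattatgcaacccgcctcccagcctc
No binding was measured here either.

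**Figure D4:**
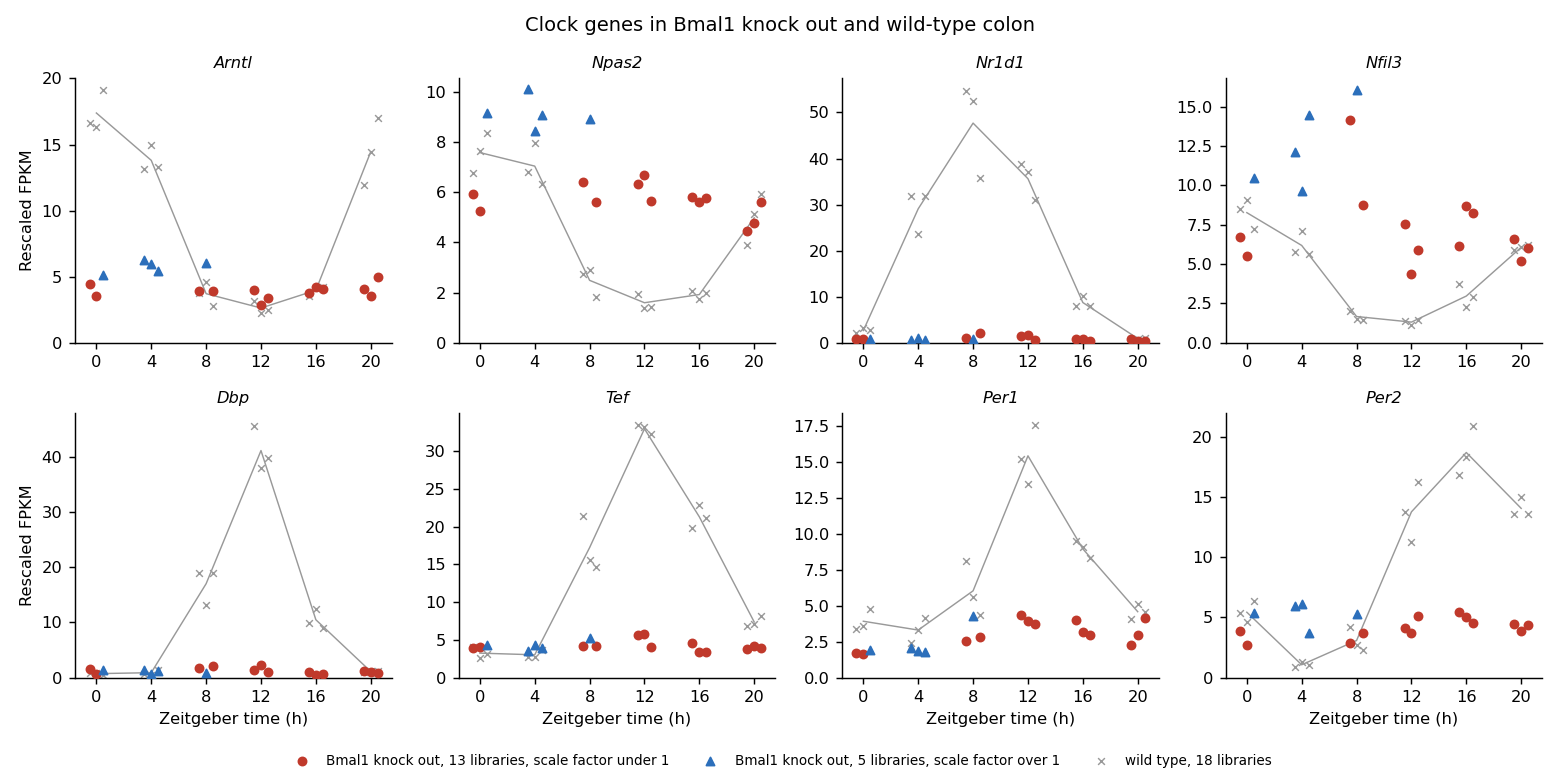
Rescaled FPKM of 8 clock genes against zeitgeber time (hours). Circles are 13 and triangles 5 Bmal1 knock out libraries, grey crosses single wild-type libraries and the grey line their mean. Dbp lies between 0.521 and 2.24 in the knock out, while its wild-type mean is 41.2 at ZT12.

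In lipid metabolism, the oxidation genes that passed peaked by day and the synthesis genes that passed peaked by night. Of 17 measured genes of fatty acid oxidation and fasting 6 were rhythmic over the 13 libraries (11 over 18, median amplitude 0.22). The shares of all genes were 6.65% over the 13 and 49.8% over 18. Slc25a20, the carnitine carrier of the mitochondrial membrane, had 46.5 and 44.3 at ZT0, 65.0 and 51.7 at ZT8, 62.5, 47.0 and 44.3 at ZT12, 40.1, 38.7 and 41.9 at ZT16, and 28.0, 33.5 and 31.1 at ZT20, lowest at ZT20. It peaked at ZT7.37 (0.42 ± 0.08, adjusted p = 0.0132) and passed in all 13 fits that leave out 1 library. Cpt1a, which loads fatty acids onto carnitine, peaked at ZT4.79 (0.42 ± 0.07, adjusted p = 0.0235; 0.0666 without ZT8 replicate 3). Pdk4, which spares pyruvate in fasting, peaked at ZT2.28 (0.57 ± 0.10, adjusted p = 0.0157; 0.0632 without ZT0 replicate 1). Of 10 fatty acid synthesis genes 3 were rhythmic (7 over 18, median amplitude 0.22), against the same shares of all genes. Scd1, a stearoyl-CoA desaturase, had 6.76 and 5.57 at ZT0, 4.61 and 3.62 at ZT8, 3.64, 2.96 and 3.75 at ZT12, 5.26, 4.76 and 5.08 at ZT16, and 11.02, 8.52 and 6.37 at ZT20. It was lowest at ZT8 and ZT12 and peaked at ZT21.8 (0.53 ± 0.10, adjusted p = 0.01). Its paralog Scd2 peaked at ZT20.2 (0.47 ± 0.08, adjusted p = 0.00952), and both passed in all 13 such fits. Srebf1, the transcription factor that drives lipid synthesis, also peaked at ZT21.8 (0.41 ± 0.09, adjusted p = 0.0232; 0.0567 without ZT0 replicate 1). With FPKM as deposited the calls of Slc25a20 (adjusted p = 0.147), Cpt1a (0.0729), Scd2 (0.207) and Srebf1 (0.117) ended, and with the length slope those of Pdk4 (0.0775) and Srebf1 (0.0618).

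**Figure D5:**
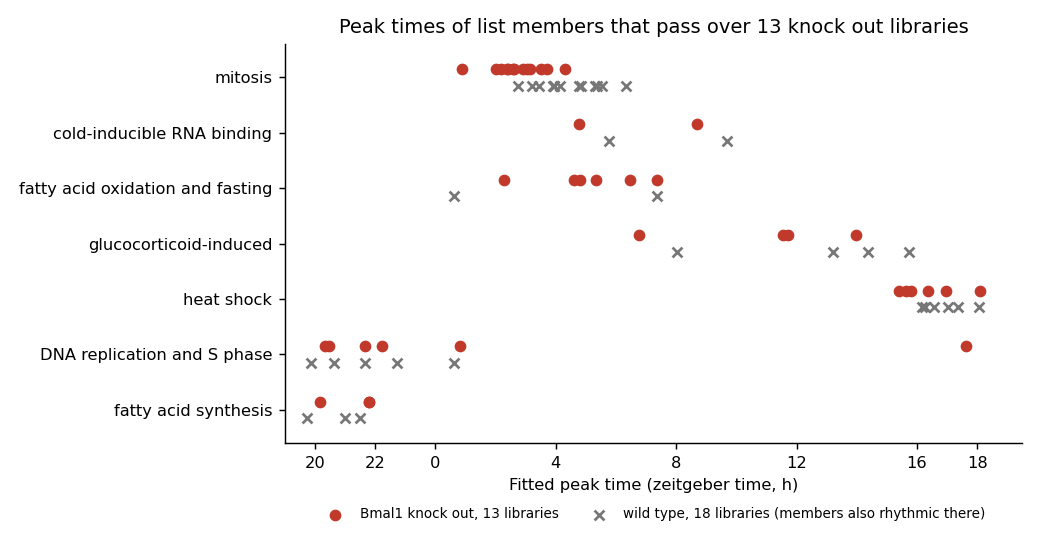
Fitted peak times (zeitgeber time, hours) of members of 7 gene lists that pass the rhythm test over the 13 Bmal1 knock out libraries (circles, upper row of each list), and of those also rhythmic in 18 wild-type libraries (crosses, lower row). All 13 mitosis circles lie between ZT0.865 and ZT4.29.

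Of 12 measured sodium-hydrogen and anion exchange genes 4 were rhythmic over the 13 libraries and 11 over 18 (median amplitudes 0.26 and 0.56). For this list and the others of this paragraph, the shares of all genes were 6.65% and 49.8%. Slc9a3, the apical sodium-hydrogen exchanger NHE3, had 1.46 and 1.91 at ZT0, 4.00 and 3.22 at ZT8, 4.66, 7.11 and 7.73 at ZT12, 3.77, 3.33 and 2.36 at ZT16, and 1.94, 2.36 and 2.47 at ZT20. The 5 libraries had 17.5 at ZT0, 58.5, 13.3 and 21.0 at ZT4 and 40.0 at ZT8, above every one of the 13. Its amplitude over the 13 was 0.72 ± 0.12 with a peak at ZT11.5 (adjusted p = 0.00625), and over 18 the fitted peak was ZT6.05. Car1, a carbonic anhydrase of surface colonocytes, peaked at ZT6.38 (0.52 ± 0.08, adjusted p = 0.00892), with 1789 to 2166 at ZT20 and 3855 and 3987 at ZT8. Slc9a2, a second exchanger, peaked at ZT7.75 (0.34 ± 0.06, adjusted p = 0.00791). All 3 passed in all 13 fits that leave out 1 library. Of 14 genes that take up sodium or respond to aldosterone, Sgk1 and the channel-activating protease Prss8 were called over the 13 (11 over 18). Prss8 (0.21 ± 0.05, adjusted p = 0.0495) passed in 0 of 13 such fits, with 0.0885 without ZT16 replicate 2. Its fitted peak moved to ZT1.07 with FPKM as deposited. Of 9 surface colonocyte markers 3 were rhythmic over the 13 (Car1, Guca2a and Cyp2c55), and the share of surface cells in each library was not measured. Guca2a, the precursor of guanylin, stood at an adjusted p of 0.109 without ZT0 replicate 1 (0.0304 with it), and Cyp2c55, a cytochrome P450, at 0.0912 without ZT8 replicate 1 (0.0349 with it). Car1 (adjusted p = 0.109), Slc9a2 (0.188) and Cyp2c55 (0.125) lost the call with FPKM as deposited, and with the length slope Guca2a (0.0877) and Prss8 (0.0608) did.

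Among defence genes, Pigr was highest on average at ZT12 and ZT16, though its highest ZT20 value, 3273, was above every ZT12 value. This receptor, which carries IgA across the epithelium, stood at 1561 and 2369 at ZT0, 1600 and 1458 at ZT8, 2431, 3048 and 3244 at ZT12, 3242, 3059 and 3507 at ZT16, and 2034, 2363 and 3273 at ZT20. The 5 libraries had 1255 at ZT0, 1236, 1110 and 1129 at ZT4 and 1328 at ZT8. Its amplitude was 0.63 ± 0.10 with a peak at ZT16.0 (adjusted p = 0.0176; 0.0534 without ZT0 replicate 1, 0.0512 with the length covariate, 0.691 with FPKM as deposited). Of 12 secreted defence genes 2 were called over the 13 and of 16 interferon response genes also 2, against 6.65% of all genes. Ifit2 (0.74 ± 0.17 at ZT11.5, adjusted p = 0.0266) and Rsad2 (0.60 ± 0.15 at ZT11.3, adjusted p = 0.0362) are interferon-induced antiviral genes. With the length covariate their adjusted p were 0.168 and 0.117, and without ZT12 replicate 2 they were 0.056 and 0.0758. None of 6 MHC class II genes, 12 immediate early genes, 15 ribosomal protein genes or 16 proteasome genes passed over the 13 libraries by limma (0, 4, 7 and 6 over 18), against 6.65% of all genes over the 13 and 49.8% over 18. Their median amplitudes over the 13 were 0.89, 0.22, 0.13 and 0.14, against 0.16 over all genes tested. A short list without a call is therefore not shown to be flat. Pyy, the hormone of colonic L cells, had 53.1 to 85.9 at ZT12 and 132 to 174 at ZT20, and peaked at ZT21.2 (0.59 ± 0.13, adjusted p = 0.0173). In the 5 libraries it ran from 16.0 to 37.1, below all 13, so its fitted rhythm over 18 (1.19 at ZT17.9) mixes the 2 sets. Pyy (adjusted p = 0.0568) and Rsad2 (0.0888) did not pass with FPKM as deposited.

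Genes that passed both over the 13 libraries and with the set as a term were ranked by amplitude, though both fits hold those libraries. The 20 largest were led by Ankrd37, an ankyrin repeat gene. It had 7.17 and 5.77 at ZT0, 12.3 and 17.1 at ZT8, 9.27, 6.52 and 6.20 at ZT12, 4.12, 2.15 and 2.96 at ZT16, and 3.55, 2.99 and 4.41 at ZT20. The ZT8 values were the highest of the 13, and the amplitude of 1.14 ± 0.11 (peak ZT6.01, adjusted p = 0.000917) was the highest of all 713 calls. Cdca3, a trigger of mitotic entry (0.74 ± 0.07, ZT2.31, adjusted p = 0.000917), Cdkn3, a phosphatase of cyclin-dependent kinases (0.73 ± 0.08, ZT3.26, adjusted p = 0.00219), Ndc80, Cenpa, Ccnb2 and Cdc20 were also among them. Crip2, a LIM domain gene, rose at night (0.70 ± 0.10, ZT19.8, adjusted p = 0.0028), with 2.04 to 2.77 at ZT16, 2.11 to 3.00 at ZT20 and 0.623 to 1.06 at ZT12. Ifit1bl1 (0.90 ± 0.16, ZT13.6) and the guanylate-binding protein Gbp3 (0.73 ± 0.19, ZT12.1) belong to families with close copies, so their identity is uncertain, as is that of the histone gene Hist1h2bh (0.71 ± 0.12, ZT3.29). The list was completed by Hsp90aa1, Ifit2, Slc9a3, Klk14, Casp14, Cmtm8, Rtn4r, Enkd1 and Retsat. Of these 20 genes, Klk14 passed in 4 and Gbp3 in 3 of 13 fits that leave out 1 library (highest adjusted p 0.0998 without ZT0 replicate 1 and 0.0963 without ZT12 replicate 2). Retsat and Ifit2 passed in 10 (highest 0.0693 without ZT0 replicate 1 and 0.056 without ZT12 replicate 2). Casp14 and Hist1h2bh passed in 12 (0.0669 without ZT8 replicate 3 and 0.0697 without ZT0 replicate 1). The other 14 passed in all 13. The calls of Hsp90aa1, Klk14, Gbp3, Ifit1bl1, Cmtm8 and Enkd1 ended with FPKM as deposited, and those of Klk14, Gbp3, Ifit1bl1, Ifit2, Hist1h2bh and Retsat with the length slope.

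Neighbouring times were compared in pairs. For ZT16 against ZT12, in a fit of the 9 libraries of low yield, 7 genes passed (0.0653%), 4 higher (0.0373%) and 3 lower (0.0280%) at ZT16. Tppp3, a tubulin-binding protein, had 118, 123 and 129 at ZT16 and 41.5, 35.5 and 37.5 at ZT12, a difference of 1.68 ± 0.19 (log2, adjusted p = 0.0144). The gene AI854703 had 15.8, 16.0 and 16.1 at ZT16 and 7.90, 7.21 and 7.25 at ZT12 (1.05 ± 0.10, adjusted p = 0.0026). Ndrg1, which responds to stress and low oxygen, had 24.1, 26.0 and 24.5 at ZT16 and 45.6, 50.4 and 43.7 at ZT12 (-0.89 ± 0.12, adjusted p = 0.0238). Snx7, a sorting nexin, had 8.16, 8.07 and 8.44 at ZT16 and 14.8, 17.2 and 14.3 at ZT12 (-0.86 ± 0.11, adjusted p = 0.021). None of these 4 overlapped between the times, which the naming rule asked for, so it is no further result. All 4 passed in the 13-library fit, which holds the same ZT12 and ZT16 libraries and is no independent check. There 38 genes passed (0.354%), 23 higher (0.215%) and 15 lower (0.140%). Hsp90aa1 differed by 0.90 ± 0.17 without passing (adjusted p = 0.0882). A fit of all 18 libraries gave 0 calls by limma (905 at an unadjusted p under 0.05), with adjusted p of 0.228 for Tppp3, 0.277 for AI854703, 0.198 for Ndrg1 and 0.302 for Snx7. The count of 7 became 18 without ZT12 replicate 1, 4 without ZT12 replicate 2, 30, 4 and 3 without replicates 1, 2 and 3 of ZT16, and 14 without ZT20 replicate 1 or 3. For ZT8 against ZT4, with scale factors of at least 0.6, 2 rows passed (0.0187%), 1 higher (0.00933%) and 1 lower (0.00933%). They share 1 symbol, so no gene is named. This comparison sets 3 libraries of one set at ZT4 beside 1 of that set and 2 of the other at ZT8. Without ZT8 replicate 2 it gave 2345 calls, and with library set as a term over 18 libraries 0 by limma (367 at an unadjusted p under 0.05).

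Against wild type the rhythm of 436 of 11216 genes differed (3.89%), with 13 knock out and 18 wild-type libraries. The count was 190 without ZT0 replicate 1 of the knock out, 266 without its ZT16 replicate 3 and 42 with FPKM as deposited. All comparisons between genotypes use the same wild-type libraries, and each genotype comes from its own table. Of the clock lists, 2 of 3 activators, 3 of 5 repressors and both output factors differed. Dbp had an amplitude of 0.45 ± 0.14 in the knock out and 2.78 in wild type (peak ZT11.8, adjusted p = 1.31e-08 for the difference). Tef, a related output factor, had 0.13 ± 0.08 in the knock out and 1.75 in wild type (adjusted p = 1.31e-08). Arntl had 0.09 ± 0.07 in the knock out and 1.43 in wild type (adjusted p = 1.83e-08). Per2 had 0.36 ± 0.07 in the knock out and 1.77 in wild type (adjusted p = 2.36e-05). For Per1 the difference did not pass (0.49 ± 0.10 and 0.94, adjusted p = 0.152).

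Of the 713 calls 377 (52.9%) were rhythmic in wild type, against 27.9% of all genes tested in the knock out, and 144 of the 713 (20.2%) differed in rhythm. Among the 377 the peak was earlier in the knock out for 292 (77.5%), with a median shift of -1.78 h and quartiles of -2.90 and -0.21 h. Against a wild-type fit without ZT4 the median shift was -1.73 h, with 292 earlier. For mitosis the 13 genes peaked at ZT2.74 in the knock out and at ZT4.42 in wild type on average, all 13 earlier in the knock out, and 3 of 17 members differed in rhythm by the test. These were Ccnb2, Cdc20 and Ube2c. For Ccnb2 the difference was past the threshold by most (adjusted p = 0.00351; peaks ZT4.29 in the knock out and ZT6.33 in wild type). None of 16 heat shock and 3 cold-inducible genes differed in rhythm by limma, against 3.89% of all genes. Hsp90aa1 had 0.84 ± 0.11 in the knock out and 0.76 in wild type (adjusted p = 0.895), and Cirbp 0.68 ± 0.08 in the knock out and 0.77 in wild type (adjusted p = 0.322). These p-values do not show that the rhythms are alike.

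Some genes had a rhythm in the knock out that differed from wild type. Aldh1a7, an aldehyde dehydrogenase, had an amplitude of 0.60 ± 0.07 with a peak at ZT7.01 in the knock out, against 0.34 at ZT12.7 in wild type (adjusted p = 1.33e-05 for the difference). Pigr had 0.63 ± 0.10 in the knock out and 0.09 in wild type, where it ran from 856 to 1124 (adjusted p = 0.000886; 0.434 with FPKM as deposited). Without the libraries of low yield 457 genes differed in rhythm (4.07%), and this count rested on single libraries. It was 2599 without ZT8 replicate 2, 1608 without ZT0 replicate 1 and 1273 without ZT8 replicate 1, but 102, 141 and 154 without replicates 1, 2 and 3 of ZT4 and 80 without ZT20 replicate 2. The change from ZT4 to ZT8 differed for 12 genes (0.107%), 7 higher (0.0624%) and 5 lower (0.0446%). The 12 became 86 without ZT8 replicate 2, 25 without ZT0 replicate 1 or 3, and 7 without ZT8 replicate 1. Dbp had the lowest difference, -3.39 ± 0.34 (log2, adjusted p = 2.53e-05), followed by Ciart and Tef.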

How the data were processed

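Colon RNA was measured in 18 Bmal1 knock out and 18 wild-type libraries. Per the submitters' processing notes the authors used TopHat2 2.1.1, Cufflinks 2.2.1 and mm10. The deposited values are FPKM per gene (24883 rows). Read counts were not used here, so depth is unknown and no counting interval is given. Each library's FPKM were rescaled by the median of its ratios to a pooled reference (6966 genes of at least 1 FPKM in all 126 libraries) and tested as log2(value + 0.5) with limma 3.58.1 in R 4.3.3, with trend and robust options. Fold changes of low genes are understated on this scale. Genes averaging at least 1 FPKM entered, and p-values were adjusted by Benjamini and Hochberg over all of them at 0.05. The 24 h rhythm used cosine and sine terms. Scripts were tested on simulated data.

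Low yield meant a scale factor under 0.6. The division at 1, the 13-library fits and the set term were chosen after seeing the data. Members and gene lists were chosen with earlier results of these data known. The naming rule asked for the largest amplitudes passing with and without low yield (no gene), genes differing between ZT8 and ZT4 (none with its own symbol) and between ZT16 and ZT12 (4), and up to 8 for each comparison with wild type. The 20 largest amplitudes over the 13 libraries, and list members, were named after their values were seen. The alternatives were other pseudocounts, filters, scalings, array weights, covariates, a replicate block, and leaving out libraries or replicates. Promoter windows came from RefSeq. Results for some genes are not reported here.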

Additional observations from a re-analysis of the deposited data

Results flagged for a closer look

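These results were singled out because the difference between the genotypes itself passed a limma test. No group held enough libraries for a search for single outlying samples. The size of a rhythm difference is the amplitude of the curve left when the wild-type rhythm is subtracted from the knock out rhythm, on the log2 scale. With the 13 knock out libraries it was 2.734 for Dbp, 2.321 for Ciart, 2.156 for Nr1d1, 1.674 for Tef, 1.423 for Per2, 1.346 for Arntl, 1.331 for Nfil3, 1.218 for Cry1, 1.181 for Npas2 and 0.6595 for Cry2. Outside the clock it was 0.9346 for Cdkn3, 0.7113 for Pigr, 0.6651 for Aldh1a7 and 0.6539 for Cenpa. Without the libraries of low yield it was 2.663 for Dbp, 2.275 for Nr1d1, 1.612 for Tef, 1.47 for Nfil3, 1.214 for Arntl, 0.824 for Aldh1a7 and 0.4393 for Anxa7.

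The change from ZT4 to ZT8, knock out minus wild type, was -3.385 for Dbp, -2.453 for Ciart and -2.146 for Tef on the log2 scale. It was 2.779 for the chemokine gene Ccl20, 1.711 for Nfil3, 1.443 for Arntl, 1.133 for Tmem252 and 0.8634 for E2f2. The knock out libraries of ZT4 all have a scale factor over 1, and of the 3 at ZT8 only replicate 2 does. The part of the library set in these values was not tested.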

How the results depend on the processing

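The counts of calls moved with the libraries used far more than with pseudocounts. Differences among the 6 times (3821) came to 9253 with FPKM as deposited, 9040 with array weights, 3 without low yield, 3 with yield class as a term, 72 with log2 scale factor and 1192 with length slope as covariates, 421 in the 13 libraries, 433 with the set term, and 1 to 5964 when a library or replicate number was left out. The 24 h rhythm (5338) came to 3548 at a mean of at least 5, 9807 as deposited, 0 without low yield, 70 with yield class, 257 with log2 scale factor, 2211 with length slope, 713 in the 13 libraries, 973 with the set term, and 2113 to 6170 with samples left out. The rhythm without low yield (0) came to 2541 with array weights, 2357 with a threshold of 0.5, and 0 to 7 with samples left out. ZT8 against ZT4 (2) came to 1 with no filter, 5122 with array weights, 0 with the set term, and 0 to 2345. ZT16 against ZT12 (7) came to 3 with no filter, 22 as deposited, 2032 with array weights, 0 in a fit of all 18 libraries, 14 in a fit of 6, 38 in the 13, and 3 to 1208. The rhythm difference without low yield (457) came to 3827 as deposited, 693 with quantile normalization, 3614 with array weights, 4102 with all 36 libraries, and 3 to 2599. The differing change from ZT4 to ZT8 (12) came to 4 as deposited, 4288 with array weights, and 1 to 86. The rhythm in the 13 libraries (713) came to 350 with no filter, 281 as deposited, 1106 with array weights, 404 with length slope, and 28 to 823. The rhythm difference with the 13 libraries (436) came to 42 as deposited, 1033 with array weights, and 45 to 591. The causes were not tested. Whether replicate numbers pair the samples was not settled. The 45 pairs with the same number had correlations of their deviations from -0.527 to 0.576, 15 of them over 0.1. Their median was 0.04, against 0.0065 for pairs with other numbers, and 8 of 18 libraries correlated best with their own number. With the replicate block the rhythm over 18 libraries had 5221 calls, ZT8 against ZT4 had 1, the rhythm difference without low yield 1036, the rhythm in the 13 libraries 522 and the rhythm difference with them 319. Of the results for single named genes, 2524 stayed on their side of the threshold, 547 lost the call, 6 gained one and 3 turned round. Direction was compared only where at least 1 of the 2 fits gave a call, so the 2524 include uncalled results whose direction was not compared. The 3 that turned round all did so with FPKM as deposited: Actb over 18 libraries (amplitude 0.176), Per2 (0.056) and Prss8 (0.3) over the 13. Between ZT16 and ZT12 the median gene differed by 0.28 (log2) as deposited and by 0.01 rescaled, and between ZT8 and ZT4 by -0.69 as deposited and by -0.07 rescaled.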
